A study of Mus musculus with 9 samples.

Results

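The genes described here carry symbols of families whose proteins write, erase or read marks on chromatin, or move nucleosomes. They were taken from the deposited expression table by symbol: histone lysine methyltransferases and demethylases (Kmt, Setd, Ezh, Kdm), acetyltransferases and deacetylases (Kat, Ep300, Crebbp, Hdac, Sirt), arginine methyltransferases (Prmt), bromodomain and chromodomain readers (Brd, Cbx), Polycomb genes (Eed, Suz12, Asxl, Bcor), remodellers (Smarc, Arid, Chd, Ino80), DNA methylation genes (Dnmt, Tet) and the beta-catenin partners Bcl9 and Pygo. A symbol does not show that a protein acts on chromatin, and Setd6 and Arid5a below have other known targets. The rule matched 135 of the 13336 genes by these symbols alone, in a table already filtered on its expression values. Of these symbols, Setd8 and Prmt10 are listed as Kmt5a and Prmt9 in the GENCODE M21 annotation, Ino80dos is a non-coding RNA gene, and the row named Chd3os carries the identifier of the protein-coding gene Rnf227.

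The series asked what forced expression of Lef1 does to cultured myoepithelial cells, the contractile basal-type cells that wrap the mucous and serous glands of the airway. All mice carried ACTA2-CreERT2, a Cre recombinase that tamoxifen activates and that is driven by the promoter of the smooth muscle actin gene, so recombination is limited to cells that use this promoter at the time of the drug. The Lef1KI group (5 libraries) came from mice that also carried the Lef-1KI allele, labelled +/+, and the WT group (4 libraries) from mice that carried the ROSA-TG reporter. Each library was made from tracheal gland cells pooled from 3 to 5 mice, which had received tamoxifen on each of 5 days. All cultures held 4 inhibitors: Y-27632 (10 µM), DMH-1 (of BMP receptors), A83-01 (of TGF-beta receptors) and CHIR 99021 (of GSK3, which turns on beta-catenin signalling), the last 3 at 1 µM each. Cells were sorted at passage 1, as GFP- cells from Lef1KI cultures and GFP+ cells from WT cultures, so that gate and genotype cannot be told apart in any comparison below. Age, sex and strain background of the mice are not stated in the labels.

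Chromatin marks are set by opposed enzymes. Acetyltransferases and methyltransferases modify histone tails, deacetylases and demethylases remove the marks, and proteins with bromodomains, chromodomains or PHD fingers bind them. Remodellers of the SWI/SNF, CHD and INO80 families use ATP to slide, evict or exchange nucleosomes, and Polycomb complexes keep developmental genes silent. LEF1 itself binds DNA without strong activity of its own: with beta-catenin it recruits BCL9, Pygopus, p300 or CBP and the SWI/SNF ATPase BRG1, and without it TCF/LEF factors are held silent by Groucho proteins and the deacetylase HDAC1.

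Values are given as TPM, a length-scaled share of all transcripts in a library. Each difference subtracts the WT mean from the Lef1KI mean of log2(TPM + 1), and genes counted as changed had an adjusted p under 0.05 in limma's test over all 13336 genes, which called 1063 genes (7.97%), 898 of them higher (6.73%) and 165 lower (1.24%) in Lef1KI. Lef1 had 139 to 312 TPM in the Lef1KI libraries and 0.38 to 0.55 TPM in the WT libraries. Because the median of all genes was shifted by 0.141, every difference below is to be read against that shift. Basal keratin and adhesion genes were high in both groups (summed level of 8 genes 17123 to 18925 TPM in Lef1KI, 13433 to 20193 TPM in WT). The 6 measured contractile genes summed to 146 to 387 TPM against 220 to 417 TPM, with Cnn1 and Actg2 not among the rows. In each list 1 gene rose, Cdh1 in the first (difference 0.43, limma adjusted p 0.012) and Mylk in the second. Mylk was low, at 1.44 to 3.43 against 0.86 to 1.76 TPM (difference 0.70, limma adjusted p 0.0448). Acta2, the smooth muscle actin gene, had a negative difference (-1.13, limma adjusted p 0.0834), at 30.1 to 106 TPM in Lef1KI and 83.2 to 176 TPM in WT. Mitochondrial and nuclear-retained RNAs, read as a sign of RNA quality, gave no call (limma; 0 of 6 also at an unadjusted p under 0.05, sums of 16052 to 33204 against 19555 to 31787 TPM). Fibroblast genes were higher in Lef1KI: 11 of 12 markers rose, and their sum was 1500 to 4231 TPM against 372 to 1039 TPM. Endothelial genes behaved alike (7 of 9 rose, 30.5 to 83.1 against 9.5 to 16.8 TPM). Tek was under 1 TPM in every library, and Esam had a negative difference (-0.74, limma adjusted p 0.3205). Of the 8 leukocyte markers Ptprc and 4 others were not among the rows. Of the other 3, Lyz2 and Coro1a rose, the latter under 1 TPM in every library. Cd68, most of the summed level (58.1 to 244 against 111 to 259 TPM), had a difference of -1.18 (limma adjusted p 0.1355). Proliferation genes showed no call (0 of 10 by limma, 2 at an unadjusted p under 0.05, sums of 422 to 774 against 482 to 777 TPM). What part other cell types have in the differences below was not tested, and in bulk RNA fewer cells of a type and less RNA per cell cannot be told apart.

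Some libraries stood apart for these genes. WT A was the lowest of the 9 libraries for 58 of the 135 chromatin genes (43.0%), and for 30.5% of all genes in the table. Among the 39 chromatin genes with an annotated transcript longer than 7000 nucleotides it was the lowest for 25. Its long chromatin genes lay 0.34 below the mean of the other WT libraries at the median (log2 scale), its 46 genes with transcripts under 4000 nucleotides 0.03 below, and the 1135 long genes among all rows 0.26 below. In Lef1KI A the short chromatin genes lay 0.35 below the mean of the other Lef1KI libraries and the long ones 0.03 above. Over all rows of Lef1KI A, short genes lay 0.15 and long genes 0.10 below. Lef1KI E had short chromatin genes 0.25 above its group and long ones 0.09 below, and was the highest library for 43 of the 135 (31.9%). Some results below are given with and without WT A. Others moved without it too, such as the differences of Ep300 (0.14 to 0.01) and Dnmt1 (0.42 to 0.57).

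Only 3 of the 135 chromatin genes changed, all higher in Lef1KI: the Polycomb reader gene Cbx7, the lysine methyltransferase gene Setd6 and the AT-rich interaction domain gene Arid5a. None fell. The deposited table kept genes whose mean log2 value was at least 3 SD in at least 1 group: 129 of the 135 met this in both groups, Cbx7, Pygo1 and Ino80dos through Lef1KI alone, and Chd5, Arid3b and Setd4 through WT alone. The share called, 2.22%, stood below the 7.97% of all genes, and 16 genes were higher and 1 (Hdac11) was lower at an unadjusted p under 0.05, where 18.7% of all genes were higher and 5.06% lower (23.8% in all). The groups did not overlap for 6 of the 135 genes (4.44%, all genes 11.9%), with Lef1KI higher for 5 (all genes 10.0%) and lower for Hdac11 (all genes 1.89%). Most differences were small: 125 of the 135 were under 0.5 in size, the median was 0.155 (quartiles 0.016 and 0.308), and 105 genes (77.8%) had positive and 30 negative differences, beside a median of 0.141 and 69.6% positive over all genes. The 95% interval of the difference lay within -1 and 1 for 125 chromatin genes (92.6%, all genes 82.2%), and within -0.5 and 0.5 for 57. The balance of signs followed the scaling of the libraries: with each library centred on its median, 66 of the 135 differences were positive and their median was -0.004 (all genes -0.018), and Cbx7 was then the only gene called (all genes 7.03%). Trimmed-mean scaling also called Cbx7 alone (all genes 7.15%), with 75 positive differences. No fit that left out 1 library gave the same 3 genes, and the count ranged from 0 (without Lef1KI C, WT B or WT E) to 9 (without Lef1KI A). Setd6 was the gene called without Lef1KI B, Arid5a the one without Lef1KI D and Hdac1 the one without WT A, and 2 genes were called without Lef1KI E. Without WT A the differences of Cbx7, Setd6 and Arid5a were 1.32, 0.47 and 1.22 (limma adjusted p 0.0741, 0.062 and 0.101), and 92 of the 135 differences were positive, with a median of 0.091 (all genes 0.118).

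**Figure D1:**
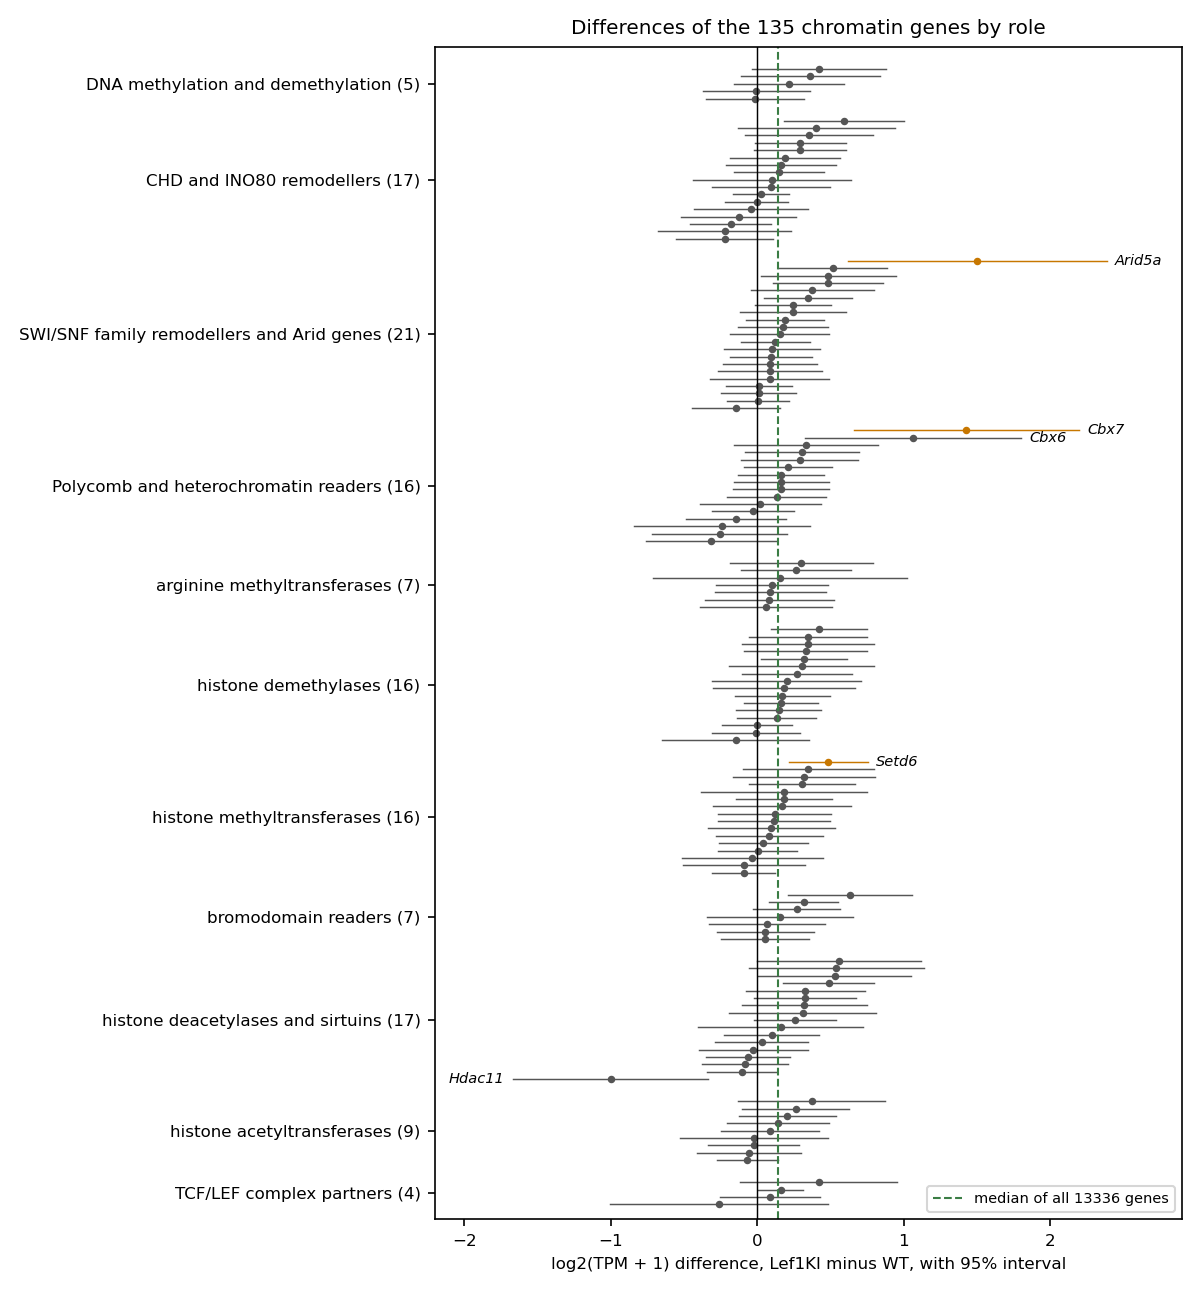
Log2(TPM + 1) difference, Lef1KI minus WT (x axis), of each of the 135 chromatin genes, grouped by role (y axis, number of genes in brackets), with its 95% interval; orange marks the genes that changed and the dashed line is the median of all 13336 genes. Most points lie close to the dashed line at 0.141, with Arid5a, Cbx7 and Cbx6 to the right and Hdac11 to the left.

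Sequence before the start of the 3 genes that changed is shown because LEF1 binds DNA through a short core, CTTTG or CAAAG on the other strand. The pieces come from the RefSeq promoter table (GRCm38.p6), lie within the 250 bases before the annotated start and read 5′ to 3′ on the gene's strand, with every match to the core in capitals. They cover chr1:36307483-36307682 (plus strand, 200 bases) for Arid5a, chr8:95715663-95715862 (plus strand, 200 bases) for Setd6 and chr15:79932769-79932896 (minus strand, 128 bases, ending before an annotated exon) for Cbx7. The start that RefSeq gives Cbx7 lies inside the longer GENCODE gene whose position is given below.
Arid5a: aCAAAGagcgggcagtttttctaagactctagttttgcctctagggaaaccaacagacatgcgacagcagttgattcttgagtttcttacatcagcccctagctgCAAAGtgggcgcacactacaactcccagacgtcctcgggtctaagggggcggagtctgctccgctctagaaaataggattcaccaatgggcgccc
Setd6: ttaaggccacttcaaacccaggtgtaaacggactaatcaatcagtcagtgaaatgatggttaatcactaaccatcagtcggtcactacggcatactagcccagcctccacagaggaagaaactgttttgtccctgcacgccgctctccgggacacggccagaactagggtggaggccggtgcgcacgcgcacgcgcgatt
Cbx7: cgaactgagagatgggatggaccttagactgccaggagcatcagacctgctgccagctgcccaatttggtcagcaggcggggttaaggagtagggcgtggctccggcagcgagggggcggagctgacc

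The Arid5a piece held the core at 2 places, beginning 249 and 145 bases before the gene's start, and the other two pieces held none. None of the 3 promoters held, on either strand, the longer form CTTTGNN in which each N is A or T and which contains the core. Over the 250 bases before the start, 17 of the 145 promoters found for 107 of the chromatin genes held the longer form (11.7%). Of all 32851 promoters in the RefSeq promoter table, 14.8% held it. Those belong to 27025 genes and are not limited to the genes measured here. For the core alone the shares were 33.8% and 48.6%. A match is a run of letters and not a measured site, and these data hold no binding.

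Cbx7 encodes a chromodomain protein that brings a Polycomb repressive complex to methylated histone H3 (ENSMUSG00000053411, mm10 chr15:79915807-79971119, minus strand). Levels were 5.66, 8.50, 7.83, 11.4 and 7.60 TPM in Lef1KI A to E, and 1.65, 2.82, 6.03 and 0.77 TPM in WT A, B, D and E. WT D reached above Lef1KI A, so the groups overlapped by that pair, and the other 3 WT libraries were below every Lef1KI library. The means were 8.19 ± 2.07 TPM (SD, n = 5) and 2.82 ± 2.30 TPM (SD, n = 4), a difference of 1.43 (SE 0.348, limma adjusted p 0.0305). Cbx7 is in the table through Lef1KI alone (log2 mean 3.17, SD 0.32, against 1.74, SD 0.84 in WT), the group where it is high, so its call is not independent of the table's filter. Leaving out 1 library moved it between 1.12 and 1.78, and it stayed called in 3 of the 9 such fits, those without Lef1KI A, Lef1KI E and WT D. WT D was also the WT library with the highest summed fibroblast level (1039 TPM), while in Lef1KI the lowest Cbx7, in Lef1KI A, stood beside the second highest sum (3752 TPM); what part such cells have in the level of Cbx7 was not tested.

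Setd6 encodes a lysine methyltransferase known to modify the NF-kB subunit RelA (ENSMUSG00000031671, chr8:95715881-95719010, plus strand). Its levels were 30.7, 25.4, 33.3, 27.3 and 31.1 TPM in Lef1KI A to E, and 19.98, 18.7, 22.2 and 22.3 TPM in WT A, B, D and E. Every Lef1KI library was above every WT library, and the libraries of each group lay close together. Mean levels were 29.5 ± 3.17 TPM (SD, n = 5) and 20.8 ± 1.75 TPM (SD, n = 4), a difference of 0.48 (SE 0.122, limma adjusted p 0.0362). The call was lost under both scalings (differences of 0.32 and 0.33) and held in 2 of the 9 fits with 1 library left out, those without Lef1KI A and Lef1KI B.

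Arid5a encodes a protein of the AT-rich interaction domain family that is best known for binding and stabilising inflammatory messenger RNAs (ENSMUSG00000037447, chr1:36307733-36324029, plus strand). Levels were 36.9, 40.5, 108, 24.3 and 60.9 TPM in Lef1KI A to E, and 8.57, 18.9, 16.7 and 24.6 TPM in WT A, B, D and E. The groups met at Lef1KI D, which was just below WT E, and Lef1KI C was far above the rest of its group. Means of 54.1 ± 32.9 TPM (SD, n = 5) and 17.2 ± 6.66 TPM (SD, n = 4) gave a difference of 1.501 (SE 0.401, limma adjusted p 0.0448). It was called in 2 of the 9 fits with 1 library left out (without Lef1KI A and Lef1KI D), where differences ran from 1.21 to 1.74, but not under either scaling (1.34 and 1.35) or without limma's intensity trend (limma adjusted p 0.0526). Lef1KI C also had the highest summed fibroblast level (4231 TPM), but Lef1KI E, with the second highest Arid5a, had the lowest of its group (1500 TPM), and Lef1KI A, with 36.9 TPM of Arid5a, had 3752 TPM; whether fibroblast RNA bears on Arid5a was not tested.

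**Figure D2:**
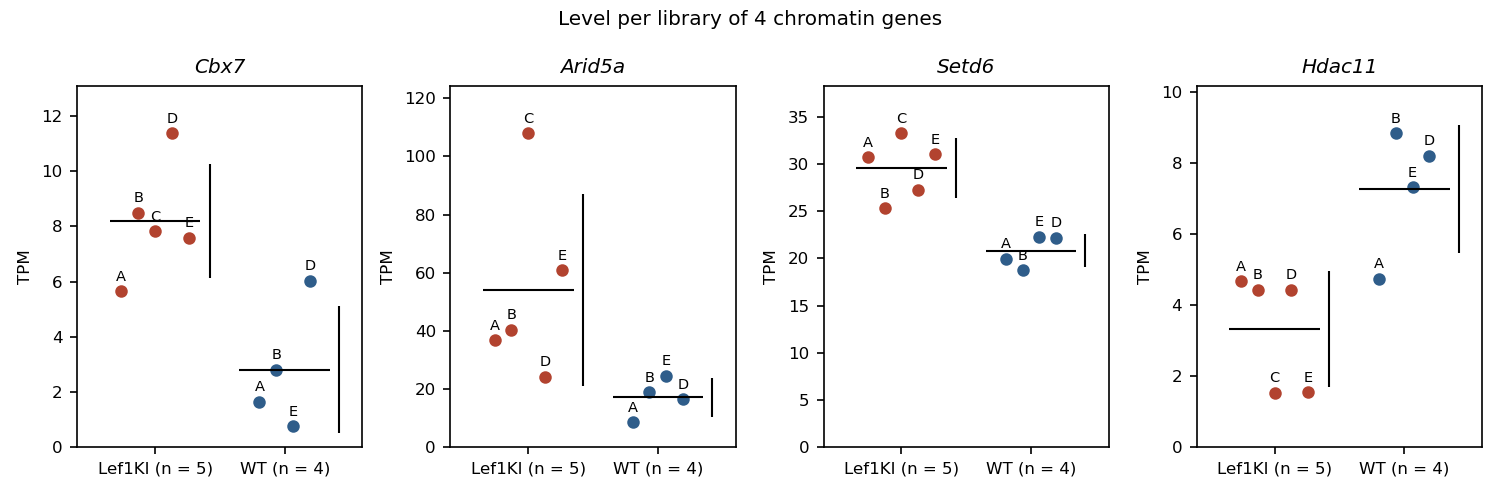
Level in TPM (y axes, starting at 0) of Cbx7, Arid5a, Setd6 and Hdac11 in each library (points with library letters; Lef1KI n = 5, WT n = 4), with the group mean (horizontal line) and ± 1 SD (vertical line). Setd6 and Hdac11 separate the groups completely, while WT D lies among the Lef1KI libraries for Cbx7 and Lef1KI D reaches the WT range for Arid5a.

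Among the proteins that stand closest to LEF1, no beta-catenin adaptor gene passed the threshold (1 of 4, Pygo1, had an unadjusted p under 0.05). Bcl9, whose protein joins beta-catenin to Pygopus, had 2.96, 4.0, 6.64, 6.82 and 2.44 TPM in Lef1KI A to E, and 2.95, 4.67, 10.5 and 5.23 TPM in WT A, B, D and E, overlapping throughout (difference -0.26, 95% interval -1.01 to 0.48, limma adjusted p 0.651). Its paralog Bcl9l was the more abundant, at 23.6 ± 4.88 TPM (SD, n = 5) against 21.9 ± 2.14 TPM (SD, n = 4), a difference of 0.09 that had the opposite sign under both scalings (-0.07 and -0.06). Pygo2, a PHD finger protein gene, had 15.9, 20.1, 32.4, 26.1 and 32.5 TPM against 12.7, 16.4, 22.5 and 22.5 TPM (difference 0.42, limma adjusted p 0.314). The other Pygopus gene, Pygo1, was nearly silent, with 0.10 to 0.26 TPM in Lef1KI and 0.02 to 0.10 TPM in WT.

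The co-activators and the deacetylases tied to TCF/LEF factors showed no call either. Ep300 (p300) had 17.8 ± 1.71 against 16.3 ± 3.18 TPM (SD, n = 5 and 4) and Crebbp (CBP) 5.58 ± 0.551 against 4.55 ± 1.02 TPM, with differences of 0.14 and 0.26. Smarca4, the gene of BRG1, was the steadiest of these, at 40.6 to 52.1 TPM in Lef1KI and 44.7 to 47.3 TPM in WT (difference 0.01, 95% interval -0.21 to 0.24), a difference of -0.15 with median centring. Hdac1 had 46.6, 70.7, 74.97, 57.2 and 81.5 TPM in Lef1KI A to E, and 72.3, 44.6, 39.9 and 30.9 TPM in WT A, B, D and E. WT A lay among the Lef1KI libraries and the other 3 WT libraries lay below all of them. With all 9 libraries the difference was 0.53 (SE 0.236, limma adjusted p 0.206), and without WT A it was 0.76 (limma adjusted p 0.0464). WT A and Lef1KI E were the libraries with the highest summed proliferation genes of their groups and also with the highest Hdac1; whether the former bears on the latter was not tested. Part of the Hdac1 transcript (1444 bases at 99.4% identity) is shared with the processed pseudogene Gm10093, so reads could be split between them. Hdac2, the partner of Hdac1 in the same complexes, had 55.0 to 75.1 TPM against 56.6 to 81.5 TPM (difference -0.08).

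**Figure D3:**
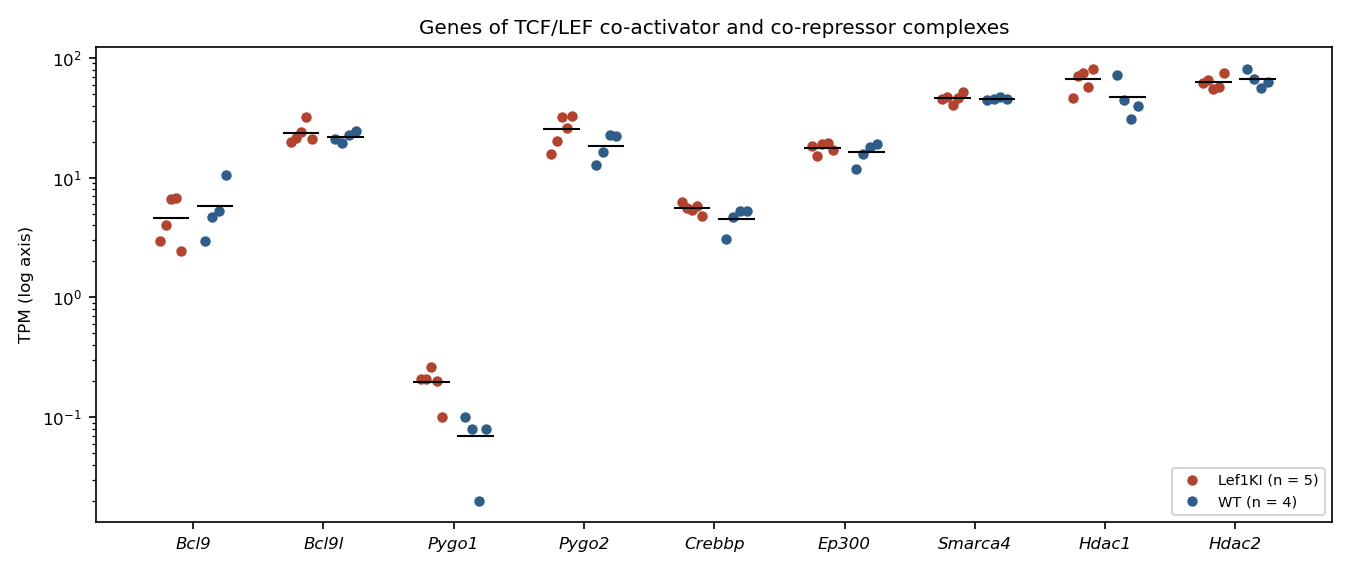
Level in TPM (log axis) of 9 genes of TCF/LEF co-activator and co-repressor complexes in each library, Lef1KI (red, n = 5) and WT (blue, n = 4), with group means as lines. The points of both groups overlap or meet for every gene, and for Hdac1 WT A is the 1 WT library among the Lef1KI libraries.

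None of the 9 acetyltransferase genes was called (limma, 0 also at an unadjusted p under 0.05). They had a median difference of 0.087, with 5 of 9 positive. Kat7, a MYST-family enzyme and the most abundant of them, had 49.0 to 57.9 TPM in Lef1KI and 54.1 to 57.5 TPM in WT (difference -0.07, 95% interval -0.28 to 0.14). The largest difference was that of Kat2b, the gene of PCAF, at 0.37 (11.5 ± 3.89 against 8.45 ± 1.66 TPM, SD, n = 5 and 4, limma adjusted p 0.342).

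Of the 17 deacetylase and sirtuin genes, none passed the threshold (limma; 2 higher and 1 lower at an unadjusted p under 0.05) and the median difference was 0.258. Hdac11, the class IV deacetylase gene (ENSMUSG00000034245, chr6:91156665-91174692, plus strand), had the lowest difference of all 135 genes. Its levels were 4.68, 4.44, 1.54, 4.44 and 1.56 TPM in Lef1KI A to E, and 4.75, 8.85, 8.21 and 7.32 TPM in WT A, B, D and E. All 5 Lef1KI libraries were below all 4 WT libraries, but WT A was only just above Lef1KI A, and Lef1KI C and E were lowest. The difference was -1.002 (SE 0.302, limma adjusted p 0.071), and it passed in 1 of the 9 fits with a library left out, at -1.12 without Lef1KI A (limma adjusted p 0.0426). A gene model, Gm44002, overlaps it on the opposite strand, and no source used here says if strand was used in counting. Sirt7, a nucleolar sirtuin gene named after its values were seen, separated the groups in the other direction, at 24.4, 28.9, 35.4, 26.9 and 35.4 TPM against 19.85, 19.96, 23.4 and 21.1 TPM (difference 0.49, limma adjusted p 0.0592).

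All 7 bromodomain genes had positive differences, with a median of 0.154 and none called (limma; 2 at an unadjusted p under 0.05). Brd2, a BET-family reader of acetylated histones, was the most abundant, at 79.3 ± 9.05 TPM (SD, n = 5) against 77.4 ± 19.7 TPM (SD, n = 4); its difference of 0.07 turned to -0.13 without WT A and to -0.09 under either scaling. Brd7, a subunit gene of the PBAF form of SWI/SNF, had 33.1, 40.4, 44.2, 44.01 and 45.7 TPM in Lef1KI A to E, and 24.5, 19.6, 40.5 and 24.3 TPM in WT A, B, D and E. WT D reached into the Lef1KI range while the other 3 WT libraries did not. The difference was 0.63 (SE 0.192, limma adjusted p 0.072), and 0.83 without WT D (limma adjusted p 0.0117).

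Lysine methyltransferase genes (16) had a median difference of 0.116, 13 positive and 3 negative, and no 95% interval reached 1 in either direction. Setd6 was the one called by limma and the only one at an unadjusted p under 0.05. Setd8, the monomethylase of histone H4 that acts in the cell cycle, was the most abundant, at 123 ± 27.6 TPM (SD, n = 5) against 106 ± 4.84 TPM (SD, n = 4) and a difference of 0.18. Among the 16 demethylase genes the median was 0.191, again with 13 positive, and none was called (limma; 2 at an unadjusted p under 0.05). Kdm4a, a Jumonji demethylase gene, held both the highest mean level and the largest difference of them. Its levels were 44.9, 46.8, 61.8, 46.9 and 59.8 TPM in Lef1KI A to E, and 31.7, 34.9, 42.2 and 45.6 TPM in WT A, B, D and E. Only WT E overlapped the Lef1KI range, and the difference of 0.42 did not pass (SE 0.148, limma adjusted p 0.117). Kdm3a, named after its values were seen, was the demethylase gene whose groups did not overlap, at 9.81 to 12.97 TPM against 7.88 to 9.18 TPM (difference 0.32, limma adjusted p 0.181). The 7 arginine methyltransferase genes all had positive differences, with a median of 0.10 and none called (limma, 0 also at an unadjusted p under 0.05). Prmt1, the main enzyme of asymmetric arginine methylation, had the highest mean level of all 135 genes and overlapped widely, at 163 to 354 TPM against 163 to 264 TPM (difference 0.30, limma adjusted p 0.422).

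In the Polycomb and heterochromatin group (16 genes, 1 called, 2 at an unadjusted p under 0.05, 11 positive, median 0.162) the chromodomain genes differed among themselves. Cbx7 and Cbx6 had differences of 1.43 and 1.06, and Cbx2 and Cbx8 of -0.26 and -0.32, the last 2 far from the threshold. Cbx6, a gene picked once its values were known, had 27.3, 42.9, 35.9, 64.8 and 34.5 TPM in Lef1KI A to E, and 18.2, 17.1, 36.3 and 9.75 TPM in WT A, B, D and E. As for Cbx7, WT D was the WT library inside the Lef1KI range and WT E the lowest; the limma adjusted p was 0.0815 with all libraries and 0.0215 without WT D (difference 1.38). The core of the other Polycomb complex, which lays down the methyl mark that CBX7 binds, held no call: Ezh2, its catalytic subunit gene, had 44.1, 34.8, 28.4, 16.5 and 43.3 TPM against 49.5, 41.1, 28.7 and 34.0 TPM (difference -0.24, 95% interval -0.85 to 0.36), Eed had a difference of -0.03 and Suz12 of 0.16. Of the heterochromatin protein genes, Cbx3 was the most abundant at 90.0 ± 13.7 TPM (SD, n = 5) against 77.2 ± 8.25 TPM (SD, n = 4), with a difference of 0.21.

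SWI/SNF and Arid genes formed the largest group, 21 genes with 20 positive differences, a median of 0.152 and Arid5a as the 1 called (5 higher at an unadjusted p under 0.05). The most abundant, Smarce1, which encodes a DNA-binding subunit, had 75.1 to 108 TPM against 68.2 to 81.3 TPM (difference 0.24, limma adjusted p 0.239). Smarcc2, the gene of a scaffold subunit, named after its values were seen, separated the groups: 10.9, 12.6, 16.3, 12.01 and 17.1 TPM in Lef1KI A to E were all above 10.2, 9.36, 9.51 and 7.81 TPM in WT A, B, D and E, and the difference of 0.52 did not pass (limma adjusted p 0.0884). Arid1a, the defining subunit gene of the BAF form, had a difference of 0.01 and a 95% interval of -0.25 to 0.27, with the opposite sign under both scalings (-0.15 and -0.14).

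The 17 CHD and INO80 genes had a median difference of 0.102, 11 positive and none called (limma; 1 at an unadjusted p under 0.05). Chd2 differed most, at 12.5, 17.4, 20.9, 17.1 and 22.7 TPM in Lef1KI A to E against 9.24, 10.99, 13.1 and 12.98 TPM in WT A, B, D and E. Lef1KI A was the 1 library of its group inside the WT range; with it the difference was 0.59 (limma adjusted p 0.081) and without it 0.71 (limma adjusted p 0.022). Chd4, the ATPase gene of the NuRD co-repressor complex and the most abundant of the group, had 53.6 ± 9.94 against 43.0 ± 2.99 TPM (SD, n = 5 and 4, difference 0.29). Chd9 had 8.87, 8.10, 7.45, 7.96 and 8.66 TPM against 5.28, 7.30, 7.03 and 6.54 TPM, every Lef1KI library above every WT library by a small margin (difference 0.29, SE 0.142, limma adjusted p 0.237). In the annotation, the longest stretch that the Chd9 transcripts share with a gene elsewhere was 337 bases, 2.8% of a transcript of 12008 bases, and no copy of the whole transcript was found. In all, 11 of 134 chromatin genes shared a stretch of at least 300 bases at 95% identity or more with a gene at another locus. Among them were Kat2b (2466 bases at 95.1%, with Kat2b-ps) and Smarce1 (1224 bases at 99.0%, with Gm8494). With a gene overlapping their own locus 21 did so, such as Chd2 (2628 bases at 100%, with 1810026B05Rik) and Cbx6 (563 bases at 100%, with Npcd). Reads of such genes could also be split. Of the 5 DNA methylation genes none was called (0 also at an unadjusted p under 0.05). Dnmt1, which copies methylation after replication, had 20.7, 25.5, 24.7, 19.8 and 36.6 TPM against 25.3, 19.1, 15.6 and 14.9 TPM, with WT A, as for Hdac1, above the rest of its group (difference 0.42, limma adjusted p 0.244).

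Further genes, called partner genes here, were read from the same fit. They encode subunits of the same complexes and other enzymes or binders of chromatin and DNA. Of 117 listed, 114 were measured and 2 were higher (1.75%, against 7.97% of all genes), with 83 positive differences and a median of 0.155. Tdg encodes the glycosylase that removes oxidised methylcytosine from DNA (chr10:82629828-82650799, plus strand). It had 51.1, 58.5, 70.3, 56.5 and 84.7 TPM in Lef1KI A to E, and 42.7, 37.5, 39.6 and 36.7 TPM in WT A, B, D and E, without overlap, a difference of 0.68 (SE 0.148, limma adjusted p 0.0175). Aebp2 encodes an accessory subunit of the Polycomb methyltransferase complex (chr6:140622663-140678472, plus strand). Its 89.3, 85.4, 97.0, 116 and 105 TPM in Lef1KI were likewise all above the 68.3, 68.1, 72.7 and 70.7 TPM in WT, which hardly varied (difference 0.48, SE 0.109, limma adjusted p 0.0212). Both calls were lost without WT B (0.66 and 0.47) and without WT E (0.65 and 0.49), and Aebp2 was not called under either scaling. With median centring the co-repressor gene Rcor2 was called lower instead (-0.60, limma adjusted p 0.0453), and without Lef1KI E the deacetylase complex gene Sap30 was called lower as well (-0.88, limma adjusted p 0.0368).

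Ratios between paralogs, which depend little on how libraries are scaled, were compared for 20 pairs. In 2 pairs the groups did not overlap, each with an exact two-sided permutation p of 0.0159, the smallest possible with 5 and 4 libraries (126 arrangements), and 0.159 after Benjamini-Hochberg adjustment over the 20 pairs, so none passed. The log2 ratio of Chd4 to Chd3, the alternative ATPases of NuRD, was 0.49, 0.56, 1.33, 0.57 and 0.82 in Lef1KI A to E and 0.12, 0.35, 0.30 and 0.34 in WT A, B, D and E. Asxl1 against Asxl2, alternative partners of the deubiquitinase BAP1, gave a small but tight shift, from 0.14 ± 0.10 (SD, n = 4) in WT to -0.14 ± 0.043 (SD, n = 5) in Lef1KI, although neither gene was called alone (differences -0.15 and 0.13, the latter -0.03 with median centring). The ratio of Hdac1 to Hdac2 was -0.41, 0.11, 0.44, 0.00 and 0.12 in Lef1KI A to E and -0.17, -0.58, -0.64 and -0.85 in WT A, B, D and E, a difference of 0.61 (exact permutation p 0.0317, adjusted p 0.212). Only Lef1KI A and WT A kept the groups from separating; without WT A they did not overlap (0.74), and the number of pairs without overlap, which cannot fall when a library is left out, went from 2 to 5.

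**Figure D4:**
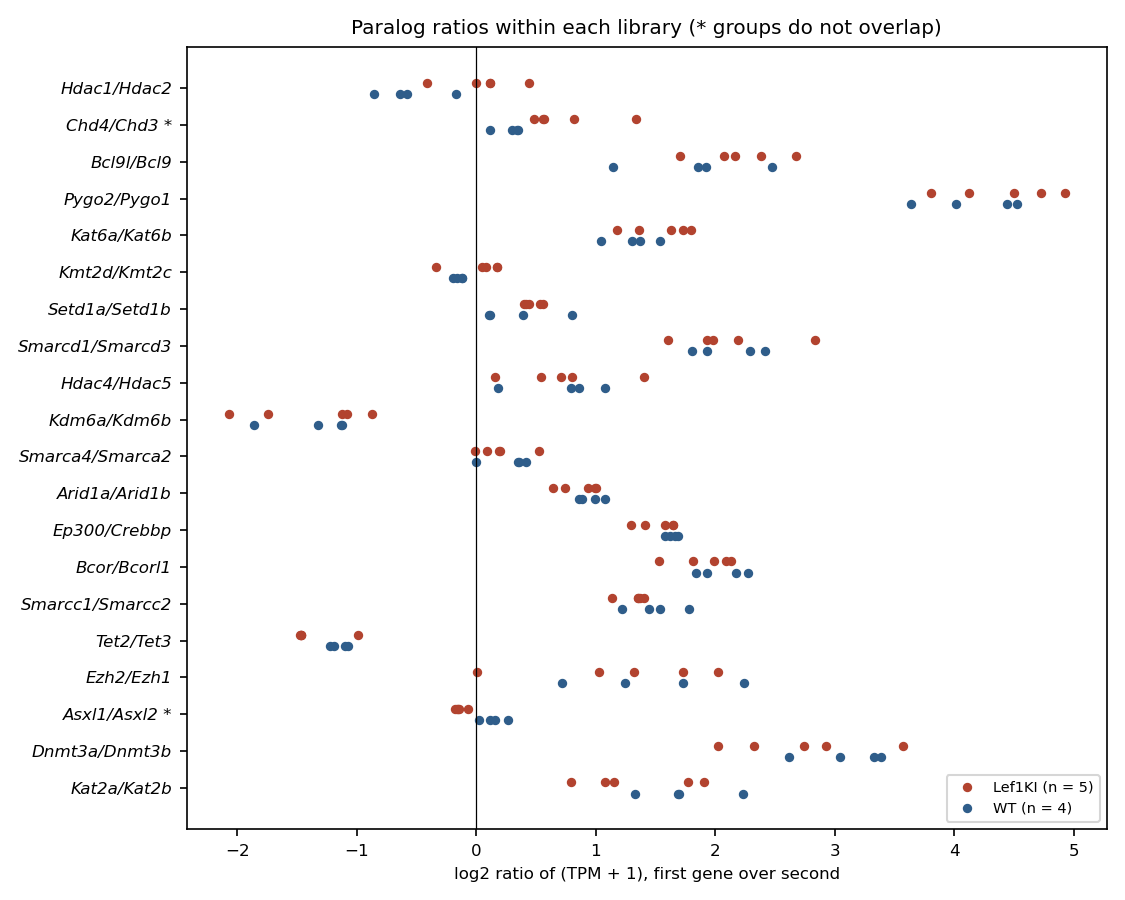
Log2 ratio of (TPM + 1) of the first gene over the second (x axis) within each library for 20 paralog pairs (y axis), Lef1KI (red, n = 5) above WT (blue, n = 4) in each row; an asterisk marks the 2 pairs whose groups do not overlap. Chd4/Chd3 lies higher and Asxl1/Asxl2 lower in Lef1KI, and most other pairs overlap widely.

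Cbx7 and Cbx6 lie close together on chromosome 15, so the genes within 500 kb of each gene that changed were also read; this was chosen after the values were seen. Of 23 measured neighbours of Cbx7, 18 had positive differences and 2 were called, where 7.97% of all genes were. Apobec3, a cytidine deaminase gene of antiviral defence (chr15:79891659-79915906, plus strand), had 58.7, 78.7, 64.1, 85.6 and 87.6 TPM in Lef1KI A to E, and 21.1, 28.1, 40.2 and 8.79 TPM in WT A, B, D and E (difference 1.73, limma adjusted p 0.0107). Rpl3, a ribosomal protein gene on the other side (chr15:80077791-80091868, minus strand), had 2065, 2748, 2253, 2561 and 2597 TPM against 1376, 1484, 1860 and 1050 TPM (difference 0.78, limma adjusted p 0.0148), a call lost under both scalings (0.62 and 0.63). For Cbx6, Apobec3, Cbx7 and Rpl3 alike, WT E was the lowest and WT D the highest of the WT libraries. These 4 genes were picked after values were seen, and not every neighbour had this order. The lowest WT library was WT A for Pdgfb (0.29 TPM) and WT B for Npcd (2.39 TPM). Over all genes, WT D also had the highest median of the WT libraries (3.84, log2 scale). The annotated ends of Apobec3 and Cbx7 overlap on opposite strands, and the library kit kept strand, but no source used here says if the counting did. Setd6 had 11 measured neighbours with none called (limma) and a median difference of 0.13, and Arid5a had 12 with 1 called, the semaphorin gene Sema4c (difference 0.94, limma adjusted p 0.00817).

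**Figure D5:**
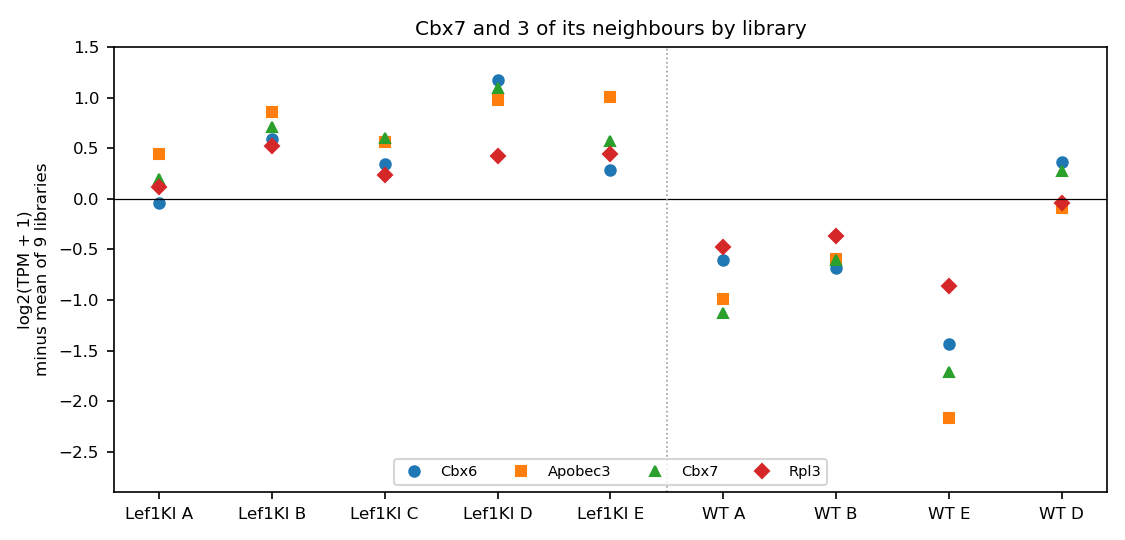
Log2(TPM + 1) of Cbx6, Apobec3, Cbx7 and Rpl3 in each library, less the gene's mean over the 9 libraries (y axis); libraries along the x axis, Lef1KI left and WT right of the dotted line. For each of the 4 genes WT E is the lowest and WT D the highest WT library, and WT A and B lie below every Lef1KI library.

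Levels across the 135 genes ran from a mean of 0.14 TPM (Pygo1) to 224 TPM (Prmt1), with a median of 15.2 TPM beside 13.4 TPM for all genes. A mean of at least 10 TPM over the 9 libraries was reached by 89 of them, and Prmt1 and Setd8 passed 100 TPM. Chd5, Ino80dos, Arid3b and Pygo1 were under 1 TPM in both groups. The genes whose 95% interval reached 1 or more in either direction, and for which these libraries therefore set no close bound, were Cbx6, Cbx7, Arid5a, Bcl9, Prmt2, Brd7, Hdac1, Hdac8, Hdac11 and Sirt4.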

How the data were processed

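Stranded mRNA libraries (TruSeq, per the labels' protocols) were measured in 9 sorted cultures, 5 Lef1KI and 4 WT. The authors deposited log2(TPM + 1) values of 13336 genes. Per the submitters' processing notes they used RSEM and mm10; the RSEM version, aligner, annotation release and strand setting are not stated in any source used. From the values, kept genes had a mean of at least 3 SD in at least 1 group, as all 135 chromatin genes do; this filter favours genes with little spread. Per the labels, RNA integrity was above 10, although that scale ends at 10. TPM keeps no read counts, so depth is unknown and only the spread between libraries serves as error. Deposited columns carry letters and the labels replicate numbers, so libraries are called by letter.

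The test was that of limma 3.58.1, run in R 4.3.3 (limma-trend, group as the only term, all genes, two-sided, Benjamini-Hochberg adjustment over 13336 genes). On simulated data of this size it recovered 57 of 100 genes changed by 1 and 11 of 100 changed by 0.5 on the log2 scale. The changed genes were drawn only from rows above a set mean level, so recovery was not simulated for genes of low level such as Pygo1. A gene not called may therefore still differ. Those data held 100 genes of each size among 13336 rows, whereas 1063 genes were called in the libraries. Benjamini-Hochberg adjustment depends on how many genes differ, so these counts need not hold for the libraries, where recovery was not tested. The log2(TPM + 1) scale understates changes of genes near 0 TPM. Permutation p-values are exact, with the smaller tail doubled, a convention settled after values were seen. One gene is not reported by name here, and its pair was left out of the ratios. Positions, lengths and shared stretches (minimap2 2.31-r1302, 134 of the 135 identifiers found; Prmt1 was not) come from GENCODE M21, promoters from RefSeq.

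Genes named by rule were those called, the most abundant and the most different gene of each role, and 12 set genes (Hdac1, Hdac2, Bcl9, Bcl9l, Pygo1, Pygo2, Crebbp, Ep300, Smarca4, Ezh2, Chd9, Dnmt1). The partner genes called and the pairs without overlap were also named by rule. Other genes were named after their values were seen. The genes and lists were chosen with earlier results of these data known, and the readings of WT A, transcript length, shared stretches and neighbours, and the search of all 135 genes for libraries far from their group, were added after values were seen. Each library is 1 pool of mice, so p-values measure the spread between pools. Alternatives were median centring, trimmed-mean scaling, a pseudocount of 0.1 TPM, a filter at 1 TPM, limma without the trend, the column letter as a block and leaving out each library.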

Additional observations from a re-analysis of the deposited data

Results flagged for a closer look

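Each of the 135 chromatin genes, the 2 called partner genes, 2 neighbours and 2 ratios was checked in each group for a library far from the others. The measure was the gap from that library to the nearest one, over the group's range on the log2 scale. Of 282 groups checked 10 stood out, fewer than the 1 in 20 that chance gives. WT A accounted for 4 of them. It was low for Chd1 (11.9 TPM, others 18.1 to 19.3 TPM) and Brd1 (16.4 TPM, others 22.7 to 24.0 TPM), and high for Kat8 (21.6 TPM, others 15.2 to 15.4 TPM) and Smarca2 (44.6 TPM, others 35.2 to 35.5 TPM). Lef1KI A was high for Kdm7a (17.3 TPM, others 7.65 to 9.67 TPM) and Setd1a (23.3 TPM, others 13.5 to 15.8 TPM) and low for Sirt5 (2.73 TPM, others 6.06 to 7.46 TPM). Lef1KI D was low for Prmt6 (8.38 TPM, others 12.8 to 14.3 TPM) and high for Chd5 (0.54 TPM, others 0.20 to 0.29 TPM). Lef1KI C was high for Setdb2 (9.59 TPM, others 3.94 to 4.71 TPM).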

How the results depend on the processing

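Columns carry letters, and no source says that a letter pairs libraries; over 13336 genes the deviations of same-letter libraries from their group means had correlations of -0.259, 0.02, 0.258 and -0.148 for A, B, D and E, and not every library matched its own letter best. With the letter as a replicate block, an alternative chosen after seeing the data, limma called 1 chromatin gene (Cbx7) and 0 of the 114 partner genes. Of the latter, 6 had an unadjusted p under 0.05 in that limma fit, and all genes gave 484 calls in place of 1063. No WT library shares the letter of Lef1KI C, so that library took its own term in the block fit and did not contribute to the differences. Leaving out Lef1KI C alone gave 757 calls over all genes. DESeq2 was not run, since the table holds no counts. Of the 3 chromatin genes called, 1 was left under median centring (1 also under trimmed-mean scaling), and the count stayed 3 with the other pseudocount and with the low-value filter, was 2 without the intensity trend (Arid5a lost), and ranged from 0 to 9 with 1 library left out. The 2 partner genes called, both higher, became 1 with trimmed-mean scaling and 1 higher and 1 lower with median centring. Their number ranged from 0 to 7 with 1 library left out. The median difference of the chromatin genes turned to -0.004 with median centring and fell to 0.015 with trimmed-mean scaling (all genes 0.013), and lay between 0.091 and 0.193 with 1 library left out. Pairs without overlap, 2 in all, ranged from 2 to 5 with 1 library left out, which can only raise this number. The share of promoters with a match was 33.8% for the core letters in place of 11.7%, which follows from the shorter string. Among the 44 genes refitted by name, signs turned only for genes not called: under the first scaling and under the second for Arid1a (-0.15 and -0.14), Asxl2 (-0.03 and -0.01), Bcl9l (-0.07 and -0.06), Brd2 (-0.09 and -0.09), Ep300 (-0.02 and -0.01) and Smarca4 (-0.15 and -0.14), and without 1 library for Arid1a (-0.05 to 0.05, negative without Lef1KI D, WT A or WT B), Eed (-0.11 to 0.02, positive without Lef1KI D, WT B or WT E), Bcl9 (-0.49 to 0.02, positive without WT D), Bcl9l (-0.02 to 0.14, negative without Lef1KI D), Brd2 (-0.13 to 0.16, negative without WT A), Hdac2 (-0.16 to 0.02, positive without WT A) and Smarca4 (-0.03 to 0.06, negative without Lef1KI E). The cause was not tested. In all, these 44 genes kept sign and side of the threshold in 589 fits, lost a call in 39, gained one in 8 and turned sign in 23. Depth is unknown, so no counting error can be given for genes under 1 TPM.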
